A study of Mus musculus with 4 samples.

Results

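A set of 10 genes of blood clotting and its control at the vessel wall (F3, F5, F7, F10, F13a1, F2r, Thbd, Procr, Tfpi and Vwf) was followed through single-cell RNA libraries of mouse aorta. They were chosen by name, with the Ensembl IDs of the 27998 genes listed in each of the 4 deposited count tables matched to symbols, and 10 of 10 were found in all 4. The libraries came from C57BL/6 mice. One held intimal cells of the young aortic arch, pooled from 8 mice, and 1 held cells of the aged adventitia, the outer coat of the vessel, for which the number of mice is not given in the sources used here. The remaining 2, called descending a and descending b, each held intimal cells of the aged descending aorta pooled from 6 mice. Ages were taken from the sample names and no age in weeks was given. Intimal cells were released from opened vessels by trypsin and scraping, in a buffer with actinomycin D to stop transcription, and red cells were lysed. The same text is given for the adventitial library although it describes removing that layer. Since the arch and the adventitia were each 1 pooled library, region, layer, age and library cannot be told apart.

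Clotting outside the vessel lumen starts when tissue factor, encoded by F3, meets factor VII (F7) on a cell surface and activates factor X (F10). Activated factor X with its cofactor, factor V (F5), makes thrombin, which turns fibrinogen into fibrin and acts on cells through the receptor PAR1 (F2r). The A subunit of factor XIII (F13a1) cross-links the fibrin. Intact endothelium is known to hold thrombin in check with thrombomodulin (Thbd) and the endothelial protein C receptor (Procr), which together activate protein C, and with tissue factor pathway inhibitor (Tfpi). Von Willebrand factor (Vwf), stored in endothelial cells, tethers platelets and carries factor VIII. Most circulating factors V, VII and X come from the liver, and F13a1 is known from macrophages, monocytes and platelets.

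The promoters of F3, F7, F10 and F5 are shown because these 4 genes of the initiating steps were all detected in 1 group of adventitial macrophages described below. F7 and F10 lie side by side on chromosome 8, with 1498 bases between the end of F7 and the start of F10 (GRCm38). F3 lies on chromosome 3 and F5 on chromosome 1. Each line gives the 250 bases before the start site, on the plus strand, from RefSeq on GRCm38.p6. Capitals mark matches on either strand to the motifs searched.
F3, chr3:121723287-121723536: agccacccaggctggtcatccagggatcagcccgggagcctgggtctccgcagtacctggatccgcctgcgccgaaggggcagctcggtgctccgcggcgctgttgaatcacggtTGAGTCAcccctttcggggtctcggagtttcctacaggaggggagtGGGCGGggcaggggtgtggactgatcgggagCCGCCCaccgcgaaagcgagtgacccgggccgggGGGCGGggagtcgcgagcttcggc
F7, chr8:13025784-13026033: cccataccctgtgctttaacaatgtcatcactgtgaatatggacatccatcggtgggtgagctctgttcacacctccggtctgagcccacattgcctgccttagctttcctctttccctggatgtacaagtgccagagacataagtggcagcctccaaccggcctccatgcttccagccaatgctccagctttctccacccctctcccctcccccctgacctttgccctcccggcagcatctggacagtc
F10, chr8:13037058-13037307: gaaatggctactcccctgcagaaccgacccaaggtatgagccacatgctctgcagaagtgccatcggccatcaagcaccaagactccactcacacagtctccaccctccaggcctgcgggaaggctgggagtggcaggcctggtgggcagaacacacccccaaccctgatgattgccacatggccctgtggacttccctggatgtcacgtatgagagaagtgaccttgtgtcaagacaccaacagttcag
F5, chr1:164151585-164151834: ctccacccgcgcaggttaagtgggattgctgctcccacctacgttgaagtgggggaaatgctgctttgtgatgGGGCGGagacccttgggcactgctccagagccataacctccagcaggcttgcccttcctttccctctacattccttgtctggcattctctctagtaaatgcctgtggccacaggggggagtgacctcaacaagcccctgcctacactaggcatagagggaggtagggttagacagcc
The 4 motifs were searched on both strands in windows that ran from 250 bases before to 50 bases after the start. They were the GATA-type motifs AGATAA and TGATAA, the AP-1-type motif TGAGTCA and the GC box GGGCGG, and no 2 of the matches shown overlapped. The F3 window held TGAGTCA at position -135 and GGGCGG at -89 and -24, with another GGGCGG on the reverse strand at -58. F5 held a GGGCGG at -177, and the F7 and F10 windows held none of the 4. Over all 32851 mouse promoters in the same table, AGATAA was found in 11.2%, TGATAA in 9.05%, TGAGTCA in 5.20% and GGGCGG in 35.7%. The table held promoters for 8 of the 10 genes.

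The deposited tables held 18624525 UMIs (counted RNA molecules) for the arch, 29370967 for the adventitia, and 13715023 and 13181305 for descending a and b. After filters and doublet removal, 2122 arch, 7850 adventitial, 1986 descending a and 2095 descending b cells were analysed, with median depths of 6951.5, 2473, 5198.5 and 4887 UMIs in the same order. Cells were clustered without the 10 genes and named by other markers, as "like" a type, from RNA alone. Endothelial-like cells were 1250 of the arch cells, 366 of the adventitial cells, and 1463 and 1289 of the descending cells. Fibroblast-like cells numbered 436 in the arch, 1430 in the adventitia, and 336 and 647 in the descending libraries. Macrophage-like cells numbered 138, 795, 87 and 82 in the same order. They were split into a Lyve1 resident-like type (39, 292, 56 and 52 cells), an intima resident-like type with Mmp12, Itgax and Trem2 among its listed markers (76, 1, 25 and 18 cells), a Ccr2 MHC class II-like type (23, 388, 6 and 12 cells) and a serosal-like type named from genes of cavity macrophages such as Alox15 and Prg4 (114 cells, all adventitial). No pair of libraries shared more than 31 cell barcodes.

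A gene's level is its UMIs per 1000000 UMIs summed over a group's cells (CPM), with an exact 95% Poisson interval that covers counting error only. T- and B-cell-like cells were used as the background, since apart from F2r, which T cells can carry, they should lack these genes. Their level in the arch reached 125 CPM for Vwf and 47.1 CPM for Procr, and in descending b 139 CPM for Vwf, 218 CPM for Procr and 122 CPM for Thbd. They numbered 164 cells in the arch, 3369 in the adventitia, 17 in descending a and 38 in descending b, so the descending backgrounds rest on few cells. A level was called above background when its lower bound exceeded the upper bound of these cells in the same library. For F2r, a level that failed this does not show absence, since the T-cell-like cells can carry the gene. Of 210 combinations of a gene with 1 of 21 groups of at least 20 cells, 65 were above background. The map of levels shows which groups these were.

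**Figure D1:**
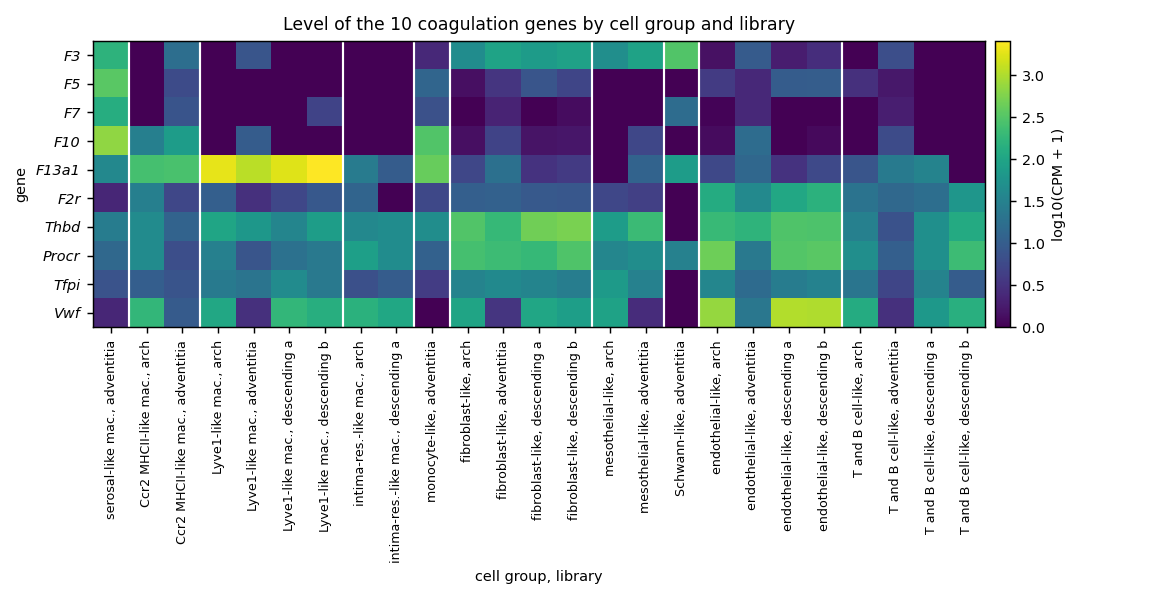
Level of each of the 10 genes, as log10(CPM + 1), with 1 column for each group and library and the T- and B-cell-like background in the last columns. Groups drawn are the macrophage types and the monocyte-, fibroblast-, mesothelial-, Schwann- and endothelial-like cells, where a library held at least 20. Red-cell-, neutrophil-, plasma-, mast- and dendritic-cell-like groups are not drawn. F2r, Procr and Vwf are highest in intimal endothelial-like columns, F13a1 in the Lyve1 resident-like columns, F5, F7 and F10 in the serosal-like column, and Thbd in the descending fibroblast-like columns.

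F3, tissue factor, was found mainly in fibroblast-like and mesothelial-like cells and in serosal-like macrophages. In fibroblast-like cells its level was 44.4 CPM in the arch (121 UMIs), 93.1 CPM in the adventitia (464 UMIs), and 73.4 and 89.5 CPM in descending a and b (138 and 284 UMIs). The arch value lay below the other 3, and its interval of 36.8 to 53.0 CPM overlapped none of theirs. In the adventitia, Schwann-like cells had 304 CPM (20 UMIs in 25 cells, interval 186 to 470), mesothelial-like cells 90.8 CPM and serosal-like macrophages 159 CPM. Adventitial fibroblast-like cells were not uniform, with 136 CPM in one cluster of 880 cells and 29.4 CPM in another of 514 cells. Intimal endothelial-like cells had at most 16 UMIs of F3 in a library (0.412 CPM in the arch, 0.864 and 1.81 CPM in descending a and b), and no T- or B-cell-like cell of the intima had any. Intimal macrophage-like cells had 0 F3 UMIs among 1911510, which allows a level of up to 1.57 CPM. Adventitial T- and B-cell-like cells had 5.64 CPM (4.08 to 7.60).

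F10, the factor at which the initiating and the common steps meet, was found in serosal-like macrophages and monocyte-like cells. Serosal-like macrophages had 698 CPM (532 UMIs, interval 640.2 to 760.2), and a UMI was found in 94.7% of these cells (Clopper-Pearson 95% interval 88.9 to 98.0) at a median depth of 5757.5 UMIs. Adventitial T- and B-cell-like cells had 4.98 CPM, with a UMI in 1.13% of cells at a median depth of 1948 UMIs. With each cell thinned to 2000 UMIs, these shares were 77.2% and 0.835%. Monocyte-like cells had 302 CPM in the adventitia (184 cells, 201 UMIs), and 280.0 and 219 CPM in the 10 monocyte-like cells of each descending library (12 and 10 UMIs). All 3 monocyte-like values lay below the serosal-like value, and their intervals overlapped one another. The Ccr2 MHC class II-like type had 28.9 CPM in the arch (6 UMIs) and 76.0 CPM in the adventitia. In the adventitia this type joined a subcluster led by Ear2, Lyz1 and Retnla, with 135 CPM, and one led by the heat-shock gene Hspa1a, with 4.12 CPM. Lyve1 resident-like cells had 8.87 CPM in the adventitia, and no UMI was found in the Lyve1 or intima resident-like cells of the 3 intimal libraries. Endothelial-like cells of the adventitia had 15.1 CPM (9.36 to 23.1), above the T- and B-cell-like level.

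F7, the partner of tissue factor, was above background in 2 of the 21 groups, the fewest of the 10 genes. Serosal-like macrophages had 133 CPM (101 UMIs, interval 108.0 to 161), with a UMI in 43.9% of cells (34.6 to 53.5), or 14.9% after thinning to 2000 UMIs, against 0.193% of T- and B-cell-like cells after thinning. The adventitial Ccr2 MHC class II-like type had 6.79 CPM (11 UMIs), monocyte-like cells 6.00 CPM (4 UMIs) and T- and B-cell-like cells 0.918 CPM. In the intima, macrophage-like cells of descending b held 3 UMIs and those of the arch and descending a none.

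F5, the cofactor of activated factor X, had 348 CPM in serosal-like macrophages (265 UMIs, interval 307 to 392), with a UMI in 74.6% of cells (65.6 to 82.3), against 0.148% of adventitial T- and B-cell-like cells. Thinned to 2000 UMIs per cell, these shares were 52.6% and 0.257%. Macrophages of mouse serous cavities are known to make factor V. The next levels in the adventitia with at least 8 UMIs were 12.01 CPM in monocyte-like cells and 4.94 CPM in the Ccr2 MHC class II-like type, while Lyve1 resident-like cells had none. A low level was also counted in intimal endothelial-like cells, at 2.97 CPM in the arch (36 UMIs) and 8.93 and 9.28 CPM in descending a and b (93 and 82 UMIs). None of these 3 exceeded the upper bound of the T- and B-cell-like cells of its library, which were few. F5 is overlapped by other annotated genes on both strands, and strand use in counting is not given in the sources used here.

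Of the 114 serosal-like cells, 108 had a UMI of F10, 85 of F5, 51 of F3 and 50 of F7. All 50 cells with F7 and all 51 cells with F3 also had F10, and 30 cells had both F3 and F7. These cells made up 114 of the 795 adventitial macrophage-like cells and held 532 of the class's 664 F10 UMIs. They came from 1 library, so no spread between animals can be given. With stricter cell filters (500 genes or more, and no more than 5% of UMIs mitochondrial), 100 adventitial cells took this name, with 668 CPM of F10, 339 of F5, 129 of F7 and 149.9 of F3. The name then also took 21 arch, 4 descending a and 9 descending b cells. The arch cells had 28.3 CPM of F10 (6 UMIs) and no UMI of F3, F5 or F7, the descending a cells none of the 4 genes, and the descending b cells 3 UMIs of F10, 2 of F7, 1 of F5 and none of F3.

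**Figure D2:**
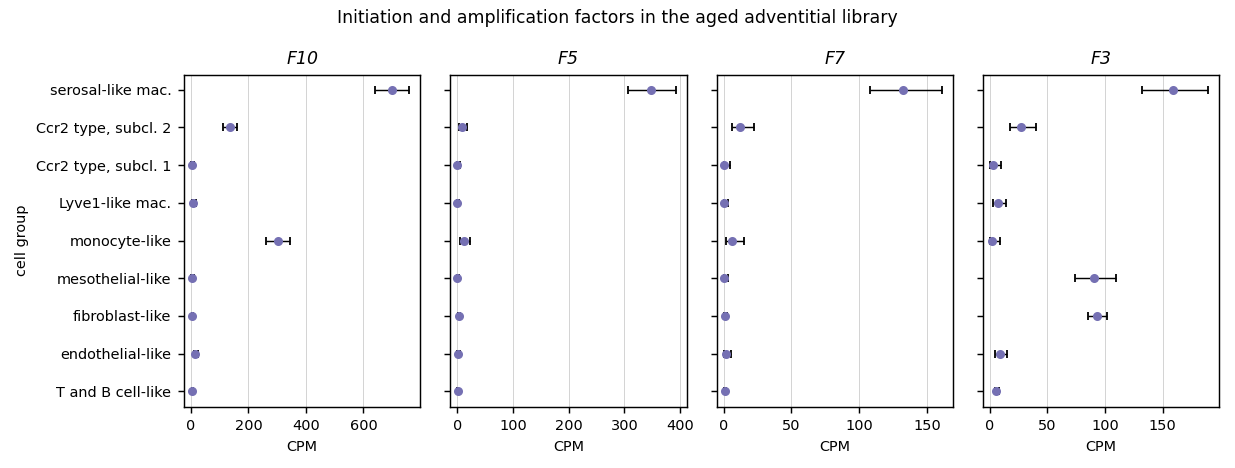
Levels of F10, F5, F7 and F3 (CPM, with exact 95% Poisson intervals) in cell groups of the aged adventitia library, with T- and B-cell-like cells last. The serosal-like point is the highest for F10 (698 CPM), F5 (348 CPM) and F7 (133 CPM), while F3 is also found in fibroblast-like (93.1 CPM) and mesothelial-like cells (90.8 CPM).

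F13a1, which encodes the catalytic subunit of the fibrin cross-linking factor, marked the Lyve1 resident-like type in every library. Its level in that type was 1939.9 CPM in the arch (390 UMIs), 1137 CPM in the adventitia (1153 UMIs), and 1768 and 2582 CPM in descending a and b (405 and 665 UMIs). The 2 descending libraries differed from each other by more than descending a differed from the arch. The Ccr2 MHC class II-like type was lower, with 250.1 CPM in the arch and 272 CPM in the adventitia, and adventitial monocyte-like cells had 420.2 CPM. Intima resident-like cells had 24.9 CPM in the arch (17 UMIs) and 8.82 and 10.6 CPM in descending a and b (1 UMI each), and serosal-like macrophages had 38.1 CPM. T- and B-cell-like cells had 7.02 CPM in the arch and 23.9 CPM in the adventitia. The gene's span holds 2 other annotated genes on the opposite strand, whose reads could be counted with it.

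**Figure D3:**
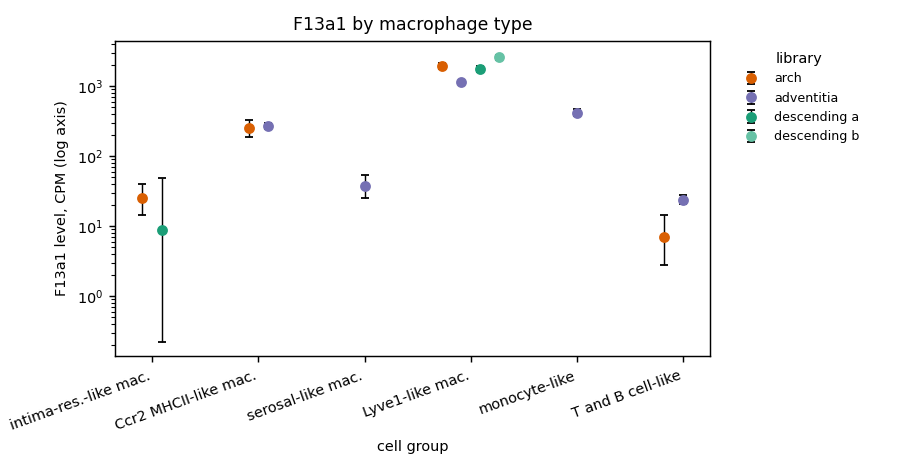
F13a1 level (CPM, log axis, exact 95% Poisson intervals) by macrophage type and library. The 4 Lyve1 resident-like points lie between 1137 and 2582 CPM, above the 2 Ccr2 MHC class II-like points (250.1 and 272 CPM) and the serosal-like (38.1 CPM) and intima resident-like points.

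F2r, the thrombin receptor PAR1, was highest in endothelial-like cells, at 124 CPM in the arch (1506 UMIs), 38.9 CPM in the adventitia (54 UMIs), and 110.2 and 153 CPM in descending a and b (1148 and 1351 UMIs). The arch value lay between the descending ones. These cells held 95.5% of the gene's UMIs in the arch and 97.0% and 97.4% in descending a and b, but 19.5% in the adventitia, where T-cell-like cells held 33.2%. T-cell-like cells of the adventitia had 22.5 CPM and its B-cell-like cells 2.27 CPM. Fibroblast-like cells had 7.57 to 10.4 CPM over the 4 libraries and macrophage-like cells 2.94 to 14.6 CPM, none above the T- and B-cell-like background. T cells can carry F2r, so this background cannot show that the gene is absent. In the adventitia the fibroblast-like interval, 7.79 to 13.7 CPM, lay above that of B-cell-like cells, 0.979 to 4.47 CPM.

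Thbd, thrombomodulin, was found in endothelial-like cells and, at higher levels within each library, in fibroblast-like cells. Endothelial-like cells had 199 CPM in the arch, 163 CPM in the adventitia, and 299 and 283 CPM in descending a and b. Fibroblast-like cells had 306 CPM in the arch, 189 CPM in the adventitia, and 469 and 532 CPM in descending a and b. In both classes the 2 descending values were the highest. The intervals of the 2 classes overlapped in the adventitia and in no other library. Adventitial mesothelial-like cells had 213 CPM, whereas macrophage-like cells had 30.0 to 66.7 CPM over the 4 libraries. T- and B-cell-like cells had 30.1 CPM in the arch and 6.16 CPM in the adventitia.

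Procr, the receptor that presents protein C to thrombin bound by thrombomodulin, had 461 CPM in endothelial-like cells of the arch, 23.0 CPM in those of the adventitia, and 318 and 343 CPM in those of descending a and b. The intimal endothelial-like cells had a UMI in 90.4% of cells in the arch (median depth 8394 UMIs) and in 73.6% and 75.0% in descending a and b (5744 and 5397 UMIs). T- and B-cell-like cells had one in 23.8% of arch cells (4176.5 UMIs), and 17.6% and 18.4% of descending a and b cells (2734 and 2398.5 UMIs). Thinned to 2000 UMIs, the endothelial-like shares were 57.8% in the arch and 43.3% and 46.3% in descending a and b, and the T- and B-cell-like shares 7.93%, 5.88% and 19.2%. In the adventitia the order of the classes was the reverse of the intima, with 218 CPM in fibroblast-like cells against 23.0 CPM in endothelial-like cells. Fibroblast-like cells of the intima had 255 CPM in the arch, and 193 and 295 CPM in descending a and b. Intima resident-like macrophages of the arch had 83.4 CPM (57 UMIs, interval 63.2 to 108), above the T- and B-cell-like level there of 47.1 CPM (34.6 to 62.7).

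Tfpi, the inhibitor of the tissue factor and factor VII complex, was low and spread over classes. Endothelial-like cells had 35.4 CPM in the arch, 14.4 CPM in the adventitia, and 26.2 and 32.0 CPM in descending a and b. Fibroblast-like cells had 32.6 CPM in the arch, 41.1 CPM in the adventitia, and 33.5 and 27.1 CPM in descending a and b. In the arch the 2 classes overlapped within their counting intervals, and mesothelial-like cells had 70.6 CPM. Only 6 of 21 groups were above the T- and B-cell-like background, 4 of them adventitial.

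Vwf was an endothelial gene of the intima. Endothelial-like cells had 750.2 CPM in the arch, 21.6 CPM in the adventitia, and 1047 and 1001 CPM in descending a and b. All other named intimal groups of at least 20 cells had 79.8 to 183 CPM, and the T- and B-cell-like cells 125 CPM in the arch and 139 CPM in descending b. These levels outside the endothelial-like class are therefore not read as expression. In the adventitia the gene was found mainly in an unnamed cluster of 41 cells led by Nts, Mmrn1 and Prox1, with 990.1 CPM (205 UMIs), which held 68.9% of the library's Vwf UMIs. That cluster had 9 of the 10 endothelial markers, but Mmrn1 and Prox1 are on the lymphatic endothelial list, so it was left out of the endothelial-like class. The T- and B-cell-like cells of the adventitia had 1.97 CPM.

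The endothelial-like cells fell into 6 clusters whose thrombin regulators did not vary together. In cluster 6, which was almost only descending (489 and 293 cells) and led by Adra2a and Stmn2, Vwf had 1245 and 1232 CPM in descending a and b, above the 716 to 1009 CPM of the other intimal clusters (in libraries with at least 20 of their cells). The same cluster had the lowest intimal Procr, with 181 and 196 CPM, against 342 to 547 CPM in the others. Its Tfpi was 14.2 and 18.7 CPM. Cluster 11, led by Coch and Frzb, had the highest F2r of the descending clusters, with 170.3 and 215 CPM in descending a and b. In the arch it had 138 CPM of F2r, next to 145 CPM in cluster 12. Its Tfpi was 61.4 CPM in the arch, and 40.2 and 43.0 CPM in descending a and b. Cluster 12, 382 arch cells led by Ahsg, Edn1 and Bmp4, had the highest Procr level, 547 CPM. Cluster 13, 365 adventitial cells led by the capillary gene Gpihbp1, had 161 CPM of Thbd but 22.4 CPM of Procr and 15.2 CPM of Vwf. The clusters were made without these genes, and their differences were described and not tested.

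**Figure D4:**
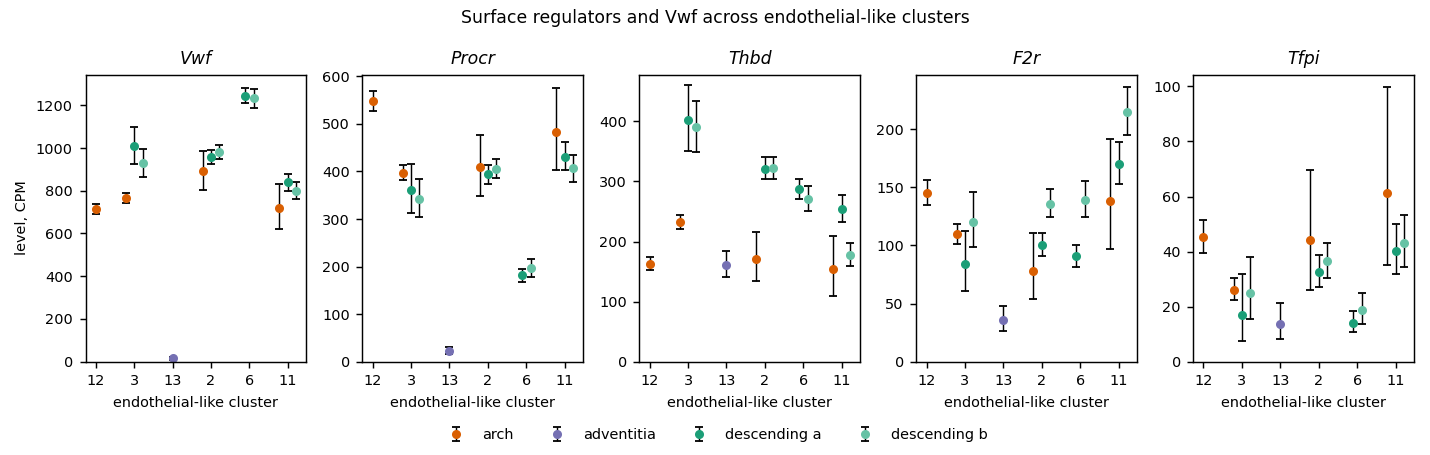
Levels of Vwf, Procr, Thbd, F2r and Tfpi (CPM, exact 95% Poisson intervals) in the 6 endothelial-like clusters, by library. Cluster 6 has the highest Vwf (1245 and 1232 CPM) and the lowest intimal Procr (181 and 196 CPM), and the adventitial cluster 13 has Thbd (161 CPM) with little Procr (22.4 CPM) or Vwf (15.2 CPM).

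Classes were compared within the intima on counts summed per library, with edgeR's quasi-likelihood test and the library as a block (3 libraries, Benjamini-Hochberg adjustment over 11917 genes, threshold 0.05). Nothing says that the libraries shared no animals or processing, so these p-values measure the spread between libraries, which may be technical. Macrophage-like cells had more F13a1 and F10 than endothelial-like cells and less of 5 genes, 4 of them regulators. F13a1 averaged 1024 ± 566 CPM in macrophage-like cells and 3.77 ± 1.35 CPM in endothelial-like cells (SD, n = 3 each), a log2 fold change of 8.21 ± 0.38 (SE; edgeR adjusted p = 3.82e-10). F10 averaged 5.70 ± 3.10 CPM against 0.158 CPM, with 11 UMIs in all in macrophage-like cells (log2 fold change 5.18 ± 0.91, given as a description). F2r fell by 3.36 on the log2 scale, Procr by 2.70, Vwf by 2.29 and Thbd by 1.93, with edgeR adjusted p-values of 2.03e-07, 1.75e-07, 5.09e-08 and 1.66e-06. F5 had 1 UMI in macrophage-like cells against 211, a ratio of pooled levels of 0.0778 (exact 95% interval from the counts 0.00196 to 0.438). It was called lower (edgeR adjusted p = 0.0287), a call lost with DESeq2 (adjusted p = 0.0564), without the library block (edgeR adjusted p = 0.106) and without any one library (0.0711 to 0.113). F3, with 0 UMIs in macrophage-like and 30 in endothelial-like cells (edgeR adjusted p = 0.185), and Tfpi (log2 fold change -0.61 ± 0.32, edgeR adjusted p = 0.146) did not pass, and F7 was too rare to test. Over all genes 44.6% were called, 20.4% higher and 24.2% lower in macrophage-like cells, against 2 and 5 of the 9 clotting genes that could be tested. A gene near 0 in 1 class passed the filter on low counts only through the other. F10 did so through macrophage-like cells and F3 through fibroblast-like cells. Here and below, these counts of clotting genes and the calls of such genes are therefore descriptions. Scaling by raw library totals moved the median log2 fold change of all genes from -0.16 to -0.46 and left these directions as they were.

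Fibroblast-like cells had more F3 and Thbd than endothelial-like cells, and less F2r, Vwf and Procr. F3 averaged 69.1 ± 22.9 CPM in fibroblast-like cells and 1.03 ± 0.713 CPM in endothelial-like cells (SD, n = 3 each), a log2 fold change of 6.25 ± 0.22 (SE). It passed the filter on low counts only through fibroblast-like cells, so its call is given as a description. Thbd averaged 436 ± 117 CPM against 260.2 ± 53.2 CPM (log2 fold change 0.88 ± 0.16, edgeR adjusted p = 0.00028), and was higher in 3 of 3 libraries. F2r fell by 3.79 and Vwf by 3.17 on the log2 scale (edgeR adjusted p = 1.29e-09 and 8.99e-10). Procr averaged 248 ± 51.2 CPM against 374 ± 76.7 CPM and stood at the threshold (log2 fold change -0.43 ± 0.17, edgeR adjusted p = 0.04998), and it did not pass with DESeq2 (adjusted p = 0.212). F5, F10, F13a1 and Tfpi did not pass. Over all genes 47.2% were called, 23.7% higher and 23.5% lower, against 2 and 3 of 9.

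Macrophage-like cells had more F13a1 than fibroblast-like cells, with a log2 fold change of 8.35 ± 0.43 (SE; edgeR adjusted p = 1.45e-09). F10 was also called higher, by 3.59 ± 0.95 (SE), which is given as a description. Fibroblast-like cells held 1 UMI of F10 in the arch, 1 in descending a and 2 in descending b. F3 was at least 44.5-fold lower in macrophage-like cells, computed from the floor of 3 counts over the group. This too is a description, since F3 passed the filter only through fibroblast-like cells. Thbd fell by 2.81 and Procr by 2.27 on the log2 scale (edgeR adjusted p = 3.83e-08 and 1.49e-06). Vwf was called higher (0.88 ± 0.17, edgeR adjusted p = 0.000795), at 154 ± 4.63 CPM in macrophage-like cells and 93.1 ± 11.9 CPM in fibroblast-like cells, levels like those of T- and B-cell-like cells. Over all genes 40.9% were called, 19.2% higher and 21.7% lower, against 3 and 3 of 9.

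Intima resident-like and Lyve1 resident-like macrophages were compared in the 3 intimal libraries, where 4 of the 10 genes passed the filter on low counts. F13a1 fell by 6.52 on the log2 scale in intima resident-like cells (SE 0.29) and Procr was called higher by 1.44 ± 0.43 (SE). F13a1 passed that filter only through Lyve1 resident-like cells and Procr only through intima resident-like cells. Both calls, and the count of the 4 below, are therefore descriptions. The Procr call was lost with DESeq2 (adjusted p = 0.310), and outside the arch it rested on 5 UMIs in each descending library, against 4 and 6 UMIs in Lyve1 resident-like cells. Thbd (-1.02 ± 0.42, edgeR adjusted p = 0.0929) and Vwf (-0.04 ± 0.28, edgeR adjusted p = 0.936) did not pass. Over 3429 genes, edgeR called 26.4%, with 12.8% higher and 13.6% lower in intima resident-like cells, against 1 higher and 1 lower of the 4.

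The young arch and the aged adventitia were each compared with the 2 aged descending libraries, which both comparisons share. With 1 library on one side, the edgeR p-values assume that it varies as the descending libraries do, and 1 residual degree of freedom was left. In endothelial-like cells of the arch, Procr was higher and F5 lower than in the descending aorta. F5 was not above the T- and B-cell-like background in either region, a background that rests on few cells in the descending libraries. Procr had a log2 fold change of 0.56 ± 0.16 (SE; edgeR adjusted p = 0.0143) and F5 of -1.53 ± 0.34 (edgeR adjusted p = 0.0019), and for each gene the arch value lay outside the 2 descending values. Thbd (-0.47 ± 0.16, edgeR adjusted p = 0.0567), Vwf (-0.37, edgeR adjusted p = 0.157), Tfpi (0.36, edgeR adjusted p = 0.169) and F2r (-0.00, edgeR adjusted p = 0.995) did not pass, nor did F3, F10 and F13a1. Of 12975 genes 11.3% were called, 6.4% higher and 4.94% lower in the arch, against 1 and 1 of 9. DESeq2 called neither gene (adjusted p = 0.531 for Procr and 0.99989 for F5). The endothelial-like cells of the 2 regions sat mostly in different clusters, the arch in clusters 12 and 3 and the descending aorta in clusters 2, 6 and 11. In cluster 3, which held 736 arch cells and 71 and 104 descending cells, Procr had 398 CPM in the arch against 362 and 342 CPM in descending a and b, and F5 had 3.44 CPM against 14.9 and 11.8 CPM.

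In fibroblast-like cells, F3 and Thbd were lower in the arch, with log2 fold changes of -0.87 ± 0.23 and -0.69 ± 0.21 (SE; edgeR adjusted p = 0.00645 and 0.0272), and 7 other genes of the set did not pass. Both arch values lay below both descending values, at 44.4 CPM against 73.4 and 89.5 CPM for F3 and 306 CPM against 469 and 532 CPM for Thbd. Over 11560 genes 4.67% were called, 2.67% higher and 2% lower in the arch, against 0 and 2 of 9. DESeq2 called neither (adjusted p = 0.99998 for each). Whether the arch difference itself differed between fibroblast-like and endothelial-like cells was tested by an interaction term in edgeR. It was called for 0 of 9 genes, and 0 of 9 had an unadjusted p under 0.05 in edgeR. The background was 1.89% of 12434 genes called by edgeR, and over all genes edgeR called 235 (1162 at an unadjusted p under 0.05) and DESeq2 14.

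In macrophage-like cells, F13a1 was the only gene of the 10 called between the arch and the descending aorta, lower by 1.56 on the log2 scale (SE 0.30; edgeR adjusted p = 2.04e-05), with 420.2 CPM in the arch against 1111 and 1542 CPM. The arch class held fewer cells of the type that carries the gene, 39 Lyve1 resident-like cells of 138 against 56 of 87 and 52 of 82. Within that type the arch value of 1939.9 CPM lay between the descending values of 1768 and 2582 CPM. F3, F5, F7 and F10 passed the filter on low counts only through the adventitia, which shares this fit. F3 had no UMI in the arch or descending cells, and the others had few. These genes could hardly be called here, so the count of the 10 that follows is a description. Over 8086 genes 3.54% were called, 1.67% higher and 1.87% lower, against 0 and 1 of 10.

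**Figure D5:**
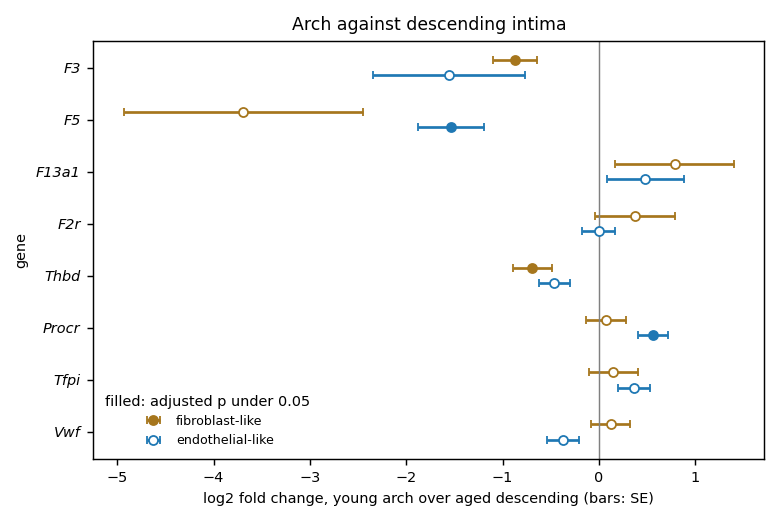
Log2 fold change (with SE) of 8 clotting genes, young arch over aged descending intima, in fibroblast-like and endothelial-like cells, from edgeR on summed counts. F5 levels in endothelial-like cells were not above the T- and B-cell-like background. Filled points have an adjusted p under 0.05, which are F3 (-0.87) and Thbd (-0.69) in fibroblast-like cells and F5 (-1.53) and Procr (0.56) in endothelial-like cells.

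Between the aged adventitia and the aged descending intima, the adventitial endothelial-like class, nearly all cluster 13, had less of the regulators and of Vwf. F10 had 21 UMIs in the adventitia against 2 in both descending libraries, so it passed the filter only through the adventitia. The ratio of its pooled levels was 146 (exact 95% interval from the counts 35.6 to 1280.4). F3 and F13a1 were higher in the adventitia, with log2 fold changes of 2.78 and 2.02 (edgeR adjusted p = 0.00214 and 0.00297), at low levels of 8.64 and 12.95 CPM. The F13a1 level lay below that of the adventitial T- and B-cell-like cells, 23.9 CPM, and the F3 interval overlapped theirs. Vwf fell by 5.49, Procr by 3.76, F2r by 1.68, Tfpi by 0.93 and Thbd by 0.76 on the log2 scale, with edgeR adjusted p-values of 2.39e-18, 1.11e-14, 4.34e-07, 0.0144 and 0.000745. F5 had 2 UMIs in the adventitia against 175, a ratio of 0.158 (0.0190 to 0.581; edgeR adjusted p = 0.00869). DESeq2 did not call F3, F5, F13a1, Thbd or Tfpi (adjusted p = 0.115, 0.210, 0.124, 0.0503 and 0.326). The background was high, with 37.9% of genes called, 19.5% higher and 18.5% lower. All but 1 of the 366 adventitial cells were in cluster 13, and none of the descending cells was. The unnamed cluster led by Nts, Mmrn1 and Prox1, with 9 of the 10 endothelial markers, held 41 adventitial cells outside this class. Those cells had more Vwf, Procr, Thbd, F2r and Tfpi than the class, so the differences above do not describe them.

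Adventitial fibroblast-like cells had less Thbd and Vwf than those of the descending intima, by 1.24 and 5.04 on the log2 scale (edgeR adjusted p = 5.65e-07 and 4.33e-29), with Vwf at background in both. F13a1 was higher by 2.88 (edgeR adjusted p = 1.26e-08), at 17.1 CPM, below the T- and B-cell-like level. Tfpi was higher by 0.63 ± 0.23 (SE; edgeR adjusted p = 0.0301), which was lost when raw library totals were used (0.46, edgeR adjusted p = 0.152) and with DESeq2 (adjusted p = 0.980). F3 (0.35, edgeR adjusted p = 0.216) and Procr (-0.00, edgeR adjusted p = 0.993) did not pass. Over all genes 24.7% were called, 14.3% higher and 10.5% lower, against 2 and 2 of 9.

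The adventitial macrophage-like class had 664 UMIs of F10, 273 of F5, 154 of F3 and 112 of F7, against 5, 1, 0 and 3 UMIs in the 2 descending libraries together. F3, F5, F7 and F10 therefore passed the filter on low counts only through the adventitia, where they are high. Their calls are given as a description. The ratio of the pooled levels was 65.8 for F5 (exact 95% interval from the counts 11.7 to 2609.9) and 9.004 for F7 (3.003 to 44.3), and F3 was at least 12.4-fold higher. F10 was higher by 5.20 ± 0.46 on the log2 scale (SE). F13a1, Procr and Vwf were lower, by 1.25, 1.92 and 4.72, and F2r, Thbd and Tfpi did not pass. Procr and Vwf were not above the T- and B-cell-like background in the Lyve1 resident-like cells of the descending libraries. Their levels there were 17.5 and 23.3 CPM for Procr and 179 and 136 CPM for Vwf (descending a and b), so these 2 differences are not read as expression. Over all genes 11.1% were called, 5.92% higher and 5.18% lower, and for the reason given no count of the 10 is set against them. The classes differ in makeup, since all 114 serosal-like cells were adventitial, although the stricter cell filter gave this name to 21 arch, 4 descending a and 9 descending b cells. Within the Lyve1 resident-like type, which all libraries hold, F5 and F7 had no UMI in the adventitia, F10 had 8.87 CPM and F3 6.90 CPM, each with an interval that overlapped the T- and B-cell-like one.

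The 57 related genes fell into 8 lists, 56 of them in the files. Of the 12 other clotting factors, 1 could be tested in the class comparisons, F8, the cofactor carried by Vwf, which was 2.64 lower on the log2 scale in fibroblast-like than in endothelial-like cells (edgeR adjusted p = 0.00313). The other thrombin receptors gave 1 testable gene of 3, F2rl1 (PAR2), lower than in endothelial-like cells by 2.57 in macrophage-like and 3.76 in fibroblast-like cells (edgeR adjusted p = 0.000639 and 3.70e-07). Of the 5 genes of the vitamin K cycle and of factor export, which clotting factors need for maturation and secretion, 5 were lower in macrophage-like than in endothelial-like cells (median log2 fold change -1.23, against -0.16 for all genes). In fibroblast-like cells 2 were higher and 3 lower (median -0.50, against -0.02). Of the 8 genes of Vwf storage and handling 5 were tested, and in both comparisons 4 were lower, among them Selp (P-selectin) and Rab27a (medians -2.93 in macrophage-like and -3.59 in fibroblast-like cells), while the lysosomal Cd63 was higher. Over all genes, 24.2% were lower in macrophage-like and 23.5% in fibroblast-like cells, the background for these counts and for those of the next list. The 3 genes of phosphatidylserine exposure, the membrane change on which factor complexes assemble, were all lower in macrophage-like than in endothelial-like cells (median -1.44) and 2 of 3 were lower in fibroblast-like cells (median -0.50).

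The list of inhibitors had 5 of 12 genes tested, and it split. In fibroblast-like cells Serpine2, which inhibits thrombin, and Tfpi2 were higher than in endothelial-like cells by 4.75 and 3.598 on the log2 scale (edgeR adjusted p = 1.30e-07 and 1.56e-05), and Hs3st1, which makes the antithrombin-binding form of heparan sulfate, and Pros1 (protein S) were lower by 1.28 and 0.74. Pros1 was also lower by 2.87 in the intima resident-like than in the Lyve1 resident-like type (edgeR adjusted p = 2.90e-05). Of the 2 inhibitors tested between these types, the other was called higher. In that comparison Pros1 was the only inhibitor called lower. In Lyve1 resident-like cells Pros1 had 164 CPM in the arch, 107 CPM in the adventitia, and 162 and 140.0 CPM in descending a and b. In fibroblast-like cells of the arch, Serpine2 had 17.97 CPM against 84.6 and 122 CPM in descending a and b (log2 fold change -2.52, edgeR adjusted p = 2.40e-13). In macrophage-like cells 1 inhibitor was higher, Anxa5, and 1 lower, Hs3st1, than in endothelial-like cells. The list's median log2 fold change against endothelial-like cells was 0.13 in macrophage-like cells (all genes -0.16) and 0.30 in fibroblast-like cells (all genes -0.02).

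Platelet and haemoglobin genes were counted as markers of blood carried over. Of the 10 platelet genes, 3 were tested between macrophage-like and endothelial-like cells and 1 was higher, Clec1b, by 5.66 on the log2 scale (edgeR adjusted p = 1.15e-07). In the arch, intima resident-like cells had 181 CPM over the list, of which Clec1b gave 73.2 CPM, and Gp9, Gp1ba, Gp1bb, Treml1, Tubb1 and Gp6 were at 0. The 4 haemoglobin genes summed to 5131 CPM in macrophage-like cells of the arch, 5073 in the adventitia, and 5876 and 783 in descending a and b. In endothelial-like cells they summed to 1549, 7917, 1879 and 886 CPM in the same order, and 3 of 4 were higher in macrophage-like than in endothelial-like cells (median log2 fold change 1.71), as were 20.4% of all genes. In fibroblast-like cells 2 of 3 platelet genes (median 1.95) and 3 of 4 haemoglobin genes (median 1.21) were higher than in endothelial-like cells, against 23.7% of all genes. Between macrophage types 1 platelet gene was tested, and it was higher in intima resident-like than in Lyve1 resident-like cells, by 7.60. There 0 of 4 haemoglobin genes were called (median -0.13), and 12.8% of all genes were higher. The part of carried-over RNA in the results was not tested.

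Genes whose log2(CPM + 1) over the 32 groups of at least 20 cells was most like each clotting gene were ranked by Pearson correlation, as a description, among 11487 genes. The groups share libraries and depth. F13a1 was closest to Cd163 (r = 0.94), Mrc1 (0.92) and Ccl24 (0.91), and Vwf to Pkn3 (0.96), Plvap (0.94) and Cytl1 (0.94). F10 was closest to Clec4e (0.86), Mcemp1 (0.84) and Serpinb2 (0.84), F7 to Clec4e (0.81), Hcar2 (0.77) and Chil3 (0.75), and F5 to Thbs1 (0.69), Serpinb2 (0.67) and Prtn3 (0.65). Clec4e thus stood first for both F7 and F10. Procr was closest to Lox (0.93), Sod3 (0.92) and Fstl1 (0.91), and F3 to Matn4 (0.87), Nr2f1 (0.85) and Fxyd1 (0.82). Thbd was closest to Cdk16 (0.90), Tnks1bp1 (0.89) and Cdc42ep2 (0.87), Tfpi to Lpp (0.89), Smad5 (0.87) and Colec12 (0.87), and F2r to Dmtf1 (0.80), Neurl4 (0.80) and 2900026A02Rik (0.79).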

How the data were processed

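Per the labels' protocols, libraries were made with the 10x Chromium 3' kit v2, aiming at 5000 cells each. Per the submitters' processing notes, Cell Ranger 2.1.2 and mm10 were used. The deposited files hold the authors' raw UMI counts per gene and barcode (2187 barcodes in the arch, 9347 in the adventitia, 2095 and 2178 in descending a and b). Of 27998 genes, 27645 had a symbol. The annotation release and strand use in counting are not given in the sources used here.

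Barcodes with fewer than 200 genes or more than 10% of UMIs mitochondrial were dropped. Scrublet's automatic threshold marked 2 of the adventitial barcodes, so the highest scores were removed instead, up to the 0.8% per 1000 barcodes that loading predicts (50 arch, 647 adventitial, 44 and 37 descending). Cells of the 4 libraries were clustered together (scanpy 1.11.5, leidenalg 0.10.2, 2000 variable genes, 30 components, 15 neighbours, resolution 1.0, and 0.5 for macrophage types), without the 10 genes and the related lists. A cluster was named from at least 3 markers found in 20% of its cells at 2 times the background. Names were rebuilt here, since no annotation by the authors was used. The 10 genes and the lists were chosen with earlier results of these data known. Those of the 10 not named in a comparison did not pass or were too rare to test. Of the genes of the lists that passed, only some are named, at most the 4 lowest in adjusted p per list. List calls of the adventitial comparisons are not given.

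Counts were summed per library and class and tested with edgeR 4.0.16 in R 4.3.3 (TMM, filterByExpr, glmQLFit, glmQLFTest, Benjamini-Hochberg over all genes, threshold 0.05). The step was checked on simulated data. The class comparisons left 4 residual degrees of freedom and the comparison of macrophage types 2. For macrophage-like cells between libraries, edgeR's prior was infinite, so these p-values rest on the pooled spread. Intervals are exact at 95% and cover counting error. Groups needed 20 cells to be set against the background or ranked, and a count of 0 was set to 3 counts over the group for a bound. The tests had no such minimum and used the 18 intima resident-like cells of descending b. Levels of some groups under 20 cells are also quoted. Alternatives were DESeq2 1.42.0, other scalings, no filter on low counts, leaving out each library, no library block, doublets kept, stricter cell filters, and clustering with the 10 genes. Gene positions are from GENCODE M21 (GRCm38).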

Additional observations from a re-analysis of the deposited data

How the results depend on the processing

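No called fold change of the 10 genes reversed under any alternative run, and the directions of fold changes not called were not compared. Of 801 alternative values of their fold changes, 738 kept their side of the threshold or, where no test was possible, stayed within the SE. The call was lost in 25 and gained in 13, and 25 had no test and moved by more than the SE. Of 820 alternative levels, 758 moved by less than the counting interval and 62 by more. The count of called genes fell by over 1.5 times with DESeq2 in 8 of the 11 comparisons. These were macrophage types (464, against 904 with edgeR), arch endothelial-like (199, against 1471), adventitial endothelial-like (2312, against 4923), arch fibroblast-like (51, against 540), adventitial fibroblast-like (594, against 2858), arch macrophage-like (62, against 286) and adventitial macrophage-like cells (177, against 898), and the interaction (14, against 235). The cause was not tested. DESeq2 gave no adjusted p for F3 and F7 in adventitial macrophage-like cells, and did not call Procr there (adjusted p = 0.492) or F13a1 in adventitial fibroblast-like cells (adjusted p = 0.129). Leaving out each library gave 3918 to 4286 calls between macrophage- and endothelial-like cells (5310 with all), 3838 to 5677 between fibroblast- and endothelial-like cells (5629), 3454 to 3892 between macrophage- and fibroblast-like cells (4878) and 708 to 778 between macrophage types (904). Without descending a or b, 57 of 170 and 58 of 180 levels were above background, against 65 of 210 with all libraries, so the lower counts come with fewer groups. With a descending library left out, the region comparisons keep no residual degree of freedom and have values only. Procr in fibroblast-like against endothelial-like cells missed the threshold without descending a (edgeR adjusted p = 0.288), without the arch (0.0859), without the library block (0.229), with RLE factors (0.0841) and with doublets kept (0.0507). Without descending a, Tfpi passed between macrophage- and endothelial-like cells (edgeR adjusted p = 0.0163), and so did Thbd between macrophage types (edgeR adjusted p = 0.0184). Keeping doublets gave 74 levels above background and the stricter cell filter 60 of 200.

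Raw library totals, an alternative chosen after seeing the data, moved the share of higher calls from 45.7% to 30.1% in macrophage- against endothelial-like cells and from 50.2% to 38.2% in fibroblast- against endothelial-like cells. The share moved from 56.4% to 45.2% in arch endothelial-like, from 57.7% to 43.2% in adventitial fibroblast-like, from 47.2% to 34.9% in arch macrophage-like and from 53.3% to 33.9% in adventitial macrophage-like cells. With these totals Thbd was called lower in arch endothelial-like cells (edgeR adjusted p = 0.0224). DESeq2 moved the share from 47.2% to 29.0% in arch macrophage-like cells and from 40.4% to 28.6% in the interaction. Smaller moves also turned the balance of higher and lower calls. In macrophage- against endothelial-like cells the share of higher calls became 54.5% with DESeq2 and 51.5% with RLE factors, and in macrophage- against fibroblast-like cells it moved from 46.9% to 50.3% with DESeq2. In adventitial macrophage-like cells it became 46.3% with DESeq2, in adventitial endothelial-like cells it moved from 51.4% to 46.7% with raw totals, and without the filter on low counts it became 47.6% in fibroblast- against endothelial-like cells and 50.4% in arch macrophage-like cells. Without the arch it was 49.9% in fibroblast- against endothelial-like cells. No paired analysis was possible because the labels give no replicate numbers that link libraries, and the arch and the adventitia are 1 library each. The depth of the intimal macrophage types limits the rare genes, as F10 had 11 UMIs and F7 3 UMIs in all intimal macrophage-like cells.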

Other observations

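The unnamed cluster led by Nts, Mmrn1 and Prox1 held 41 adventitial and 22 descending a cells, and it carried several of the regulators beside Vwf. Its Vwf level was 990.1 CPM in the adventitia and 794 CPM in descending a. Procr had 555 CPM in its adventitial cells, against 23.0 CPM in the endothelial-like cells of that library, and 238 CPM in descending a. Thbd had 357 CPM in the adventitia and 814 CPM in descending a, and Tfpi 53.1 and 92.6 CPM. F2r had 116 and 106 CPM. The cluster belongs to no class that was tested, and its cells were too few in the other libraries to be given.

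The 2 main adventitial fibroblast-like clusters carried the genes in different proportions. The cluster of 880 cells had 136 CPM of F3 and 47.9 CPM of Tfpi, against 29.4 and 32.6 CPM in the cluster of 514 cells. Thbd and Procr stood the other way, at 131 and 128 CPM in the cluster of 880 cells against 269 and 360.1 CPM in the cluster of 514 cells. These are clusters of 1 library and were not tested.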
